A study of Rattus norvegicus with 9 samples.

Results

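The genes described here are those of fatty acid uptake and mitochondrial beta-oxidation in the rat left ventricle. A list of 37 genes was set by function, and a gene was kept when its mean over the 9 libraries was at least 1 CPM, a count scaled to a common library size. All 37 of the 37 listed genes were kept, out of 22608 gene names in the tables and 15467 genes that passed the filter on low counts and were tested. The rats were of the Sprague-Dawley strain, with a labelled age of 8 weeks plus 28 days. One group was labelled saline, the second Ang II (angiotensin II, the vasoconstrictor peptide of the renin system, used in rodents as a model of hypertension and cardiac fibrosis), and the third Ang II+NaBu (Ang II with sodium butyrate, a histone deacetylase inhibitor that is itself a short-chain fatty acid salt). Each group had 3 libraries at 28 days, and the Ang II+NaBu libraries are called NaBu replicates 2, 4 and 6 after the numbers in their column names. The labels give no dose or route, no group had NaBu without Ang II, and no label says whether replicates are different animals. The p-values therefore measure only the spread between these samples, which may be technical.

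The working heart takes most of its energy from long-chain fatty acids. They cross the cell membrane with the help of transporters, are joined to coenzyme A, enter the mitochondrion as carnitine esters, and are shortened there in repeated cycles of dehydrogenation, hydration, a second dehydrogenation and thiolysis. Malonyl-CoA made by acetyl-CoA carboxylase inhibits the entry step, and electrons from the first dehydrogenation reach the respiratory chain through electron transfer flavoprotein. Many of these genes are known targets of the nuclear receptors PPAR alpha and ERR alpha and of their coactivator PGC-1 alpha.

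The 250 bases before the RefSeq start of each gene were searched on both strands for AGGTCA, the half-site that these nuclear receptors bind. The RefSeq table for the build GRCr8 held 31 of the 37 genes, and had no entry for Decr1, Acaca, Cpt1b, Acadl, Acaa2 and Ech1. AGGTCA lay in 6 of these 31 (19.4%), namely Acacb, Acadvl, Echs1, Eci1, Slc27a1 and Ucp3, against 14.1% of all 33469 windows of the same length. The longer AAGGTCA, which contains it, lay in 1 of the 31 (3.23%, Acacb) against 3.99% of all windows, and AGGTCANAGGTCA, in which N is any base, in 0 of the 31 against 0.0508%. The windows of Ucp3, Etfdh and Crat are shown because these genes were among the 5 that rose with NaBu against saline and their windows overlap no RefSeq gene. Each runs 5′ to 3′ on the strand of its gene, with AGGTCA in capitals. Ucp3 is on the plus strand (chr1:164227660-164227909), Etfdh on the minus strand (chr2:167060759-167061008) and Crat on the minus strand (chr3:34087100-34087349).
Ucp3: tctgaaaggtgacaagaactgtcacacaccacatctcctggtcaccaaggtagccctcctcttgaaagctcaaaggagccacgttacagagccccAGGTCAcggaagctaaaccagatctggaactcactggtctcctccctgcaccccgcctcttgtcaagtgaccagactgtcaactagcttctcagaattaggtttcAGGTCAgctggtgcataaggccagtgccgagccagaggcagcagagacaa
Etfdh: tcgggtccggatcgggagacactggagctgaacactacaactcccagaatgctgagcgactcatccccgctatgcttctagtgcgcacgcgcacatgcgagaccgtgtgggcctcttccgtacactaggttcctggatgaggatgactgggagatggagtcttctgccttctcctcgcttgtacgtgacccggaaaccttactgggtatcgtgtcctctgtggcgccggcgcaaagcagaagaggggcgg
Crat: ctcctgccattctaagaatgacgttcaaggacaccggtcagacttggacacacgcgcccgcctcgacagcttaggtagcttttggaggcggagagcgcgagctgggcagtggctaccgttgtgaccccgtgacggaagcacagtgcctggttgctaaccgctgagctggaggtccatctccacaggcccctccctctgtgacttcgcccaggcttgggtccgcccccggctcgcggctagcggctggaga
Ucp3 held 2 half-sites, both on its own strand, whose first bases lay 155 and 50 bases before the start. Etfdh and Crat held no AGGTCA in the window, on either strand. The part of the half-site in the differences of these genes was not tested.

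Depth was 29284780 to 49865446 estimated counts a library. Within a group, log2 CPM over all genes correlated at 0.936 to 0.946 in saline, 0.954 to 0.963 in Ang II and 0.963 to 0.968 with NaBu, with a biological coefficient of variation of 0.256 over all groups. The library labelled saline replicate 2 stood apart. All 9 atrial cardiomyocyte markers were highest there, with a summed level of 5979.6 CPM against 89.6 to 336.5 CPM in the other 8 libraries, and 13 of 14 ventricular cardiomyocyte markers were lowest. It was also the library in which 26 of the 37 fatty acid genes were lowest, and calls against saline are given with and without it. The library labelled saline replicate 3 came next on the atrial list, at 336.5 CPM, with the atrial marker Bmp10 at 22.2 CPM. Its level of the fibroblast marker Postn, 91.7 CPM, was the highest of the 9 libraries. In bulk RNA, fewer cells of a type and less RNA per cell cannot be told apart.

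With NaBu added to Ang II, most fatty acid genes averaged higher than with Ang II alone, and Ang II against saline gave smaller differences. The median log2 difference of the 37 genes, with the median over all genes tested beside it, was 0.12 (-0.005) between Ang II and saline. It was 0.33 (-0.025) between NaBu and Ang II, and 0.39 (-0.051) between NaBu and saline. Genes with a log2 difference above 0 numbered 28 of 37 between Ang II and saline (49.0% of all genes). They numbered 32 of 37 between NaBu and Ang II (47.3%) and 31 of 37 between NaBu and saline (44.7%). The 2 NaBu comparisons share their 3 NaBu libraries and the comparisons with Ang II share its 3 libraries, so these counts are not independent of each other. Ang II replicate 1 was the lowest Ang II library for the 37 genes. Without it, their median between NaBu and Ang II was 0.21 (-0.003), with 30 of 37 above 0.

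A gene was called when edgeR's quasi-likelihood test gave a Benjamini-Hochberg adjusted p under 0.05 over all genes tested. Against saline, 5 of the 37 genes rose with NaBu and 0 fell, where 5.06% of all genes were called and 3.01% were called higher. They were Ucp3, Acot2, Etfdh, Acadvl and Crat, by 1.5-fold to 1.88-fold. Against Ang II alone, edgeR called 0 of the 37 (1.60% of all genes), with a smallest adjusted p of 0.0763 for Ucp3. There 12 of the 37 had an unadjusted p under 0.05, against 22.4% of all genes, and DESeq2 called 6, all higher (5.57% of all genes). For Ang II against saline edgeR called 0 of the 37 and 0 genes in all (0%), with 2 of the 37 at an unadjusted p under 0.05 against 5.94% of all genes, and DESeq2 called 0 of the 37.

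**Figure D1:**
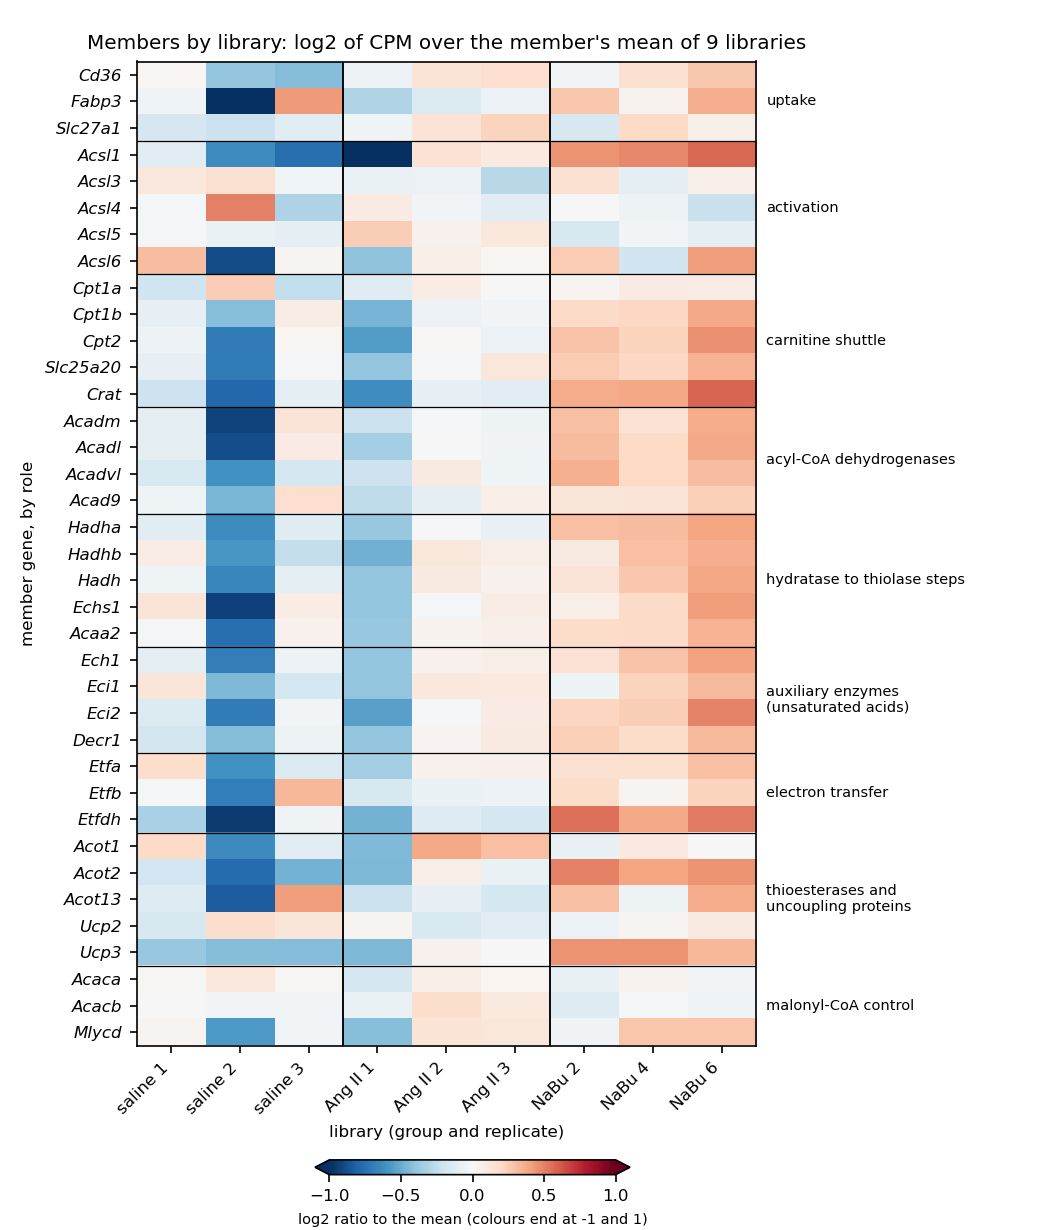
Heat map of the 37 genes (vertical axis, grouped by role) in the 9 libraries (horizontal axis); colour is the log2 ratio of a library's CPM to the gene's mean over the 9 libraries. NaBu replicate 6 was highest for 21 of the 37 genes, and the library labelled saline replicate 2 was lowest for 26.

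By the ranges of single libraries, the groups were apart for most of these genes only in NaBu against Ang II. With NaBu against Ang II, all 3 NaBu libraries lay above all 3 Ang II libraries for 22 of the 37 genes (18.1% of all genes) and below them for 1, Acsl5 (17.5%). With NaBu against saline, the groups did not overlap and NaBu was higher for 18 of the 37 (14.5% of all genes), and for 19 they overlapped. With Ang II against saline the groups separated upward for 2, Slc27a1 and Acsl5 (4.94%), and downward for 1, Acsl3 (4.97%).

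None of the 3 uptake genes was called by edgeR in the 3 comparisons with all libraries. Cd36 encodes the fatty acid translocase of the cell membrane. Its level was 917, 690.5 and 671 CPM in saline replicates 1 to 3, 871, 993 and 1016.5 CPM in Ang II, and 887, 1009.9 and 1089.6 CPM in NaBu replicates 2, 4 and 6. Both Ang II groups averaged above saline, with overlap at saline replicate 1. Its log2 difference was 0.34 (SE 0.143) for Ang II against saline, the largest of the 37 in that comparison, with an edgeR adjusted p of 0.815. Without the library labelled saline replicate 2 it was 0.27 (adjusted p 0.658), below Ucp3 at 0.28. It was 0.05 (SE 0.143, adjusted p 0.868) for NaBu against Ang II.

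Fabp3 encodes the fatty acid binding protein that carries fatty acids through the cytosol of muscle cells. Its level was 1509, 746.5 and 2076 CPM in saline, 1255, 1411 and 1486 CPM in Ang II, and 1869, 1583 and 1994 CPM with NaBu. Saline spanned the whole range of the other groups, so only NaBu against Ang II separated, with a log2 difference of 0.39 (SE 0.287) and an edgeR adjusted p of 0.457. Slc27a1 encodes a fatty acid transport protein. Its level was 58.8, 56.8 and 61.3 CPM in saline, 64.0, 72.4 and 77.1 CPM in Ang II, and 59.0, 75.6 and 68.8 CPM with NaBu. Every Ang II library was above every saline library, and the NaBu libraries reached back into the saline range. The log2 difference was 0.27 (SE 0.113, adjusted p 0.808) for Ang II against saline and -0.07 (SE 0.113, adjusted p 0.767) for NaBu against Ang II. Slc27a1 overlaps Pgls and Fabp3 overlaps Zcchc17 in the RefSeq annotation, and no use of strand is stated, so reads of the overlap cannot be assigned. In all, 7 of the 37 genes overlap another coding gene in RefSeq, the others being Acsl3, Acsl5, Slc25a20, Ech1 and Acaca.

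Long-chain acyl-CoA synthetases activate fatty acids by joining them to coenzyme A, and Acsl1 is the main form in heart muscle. Acsl1 stood at 747, 524 and 479.5 CPM in saline, 336, 894 and 866 CPM in Ang II, and 1104, 1132 and 1205 CPM with NaBu. The 3 NaBu libraries lay together above the other 6, which scattered widely, Ang II most of all. NaBu exceeded saline by a log2 difference of 0.97 (SE 0.315), the largest of the 37, but the edgeR adjusted p was 0.0955, and 0.213 against Ang II (log2 difference 0.72, SE 0.313). The gene has 8 transcripts in the tables, and the one with the highest mean held only 24.6% to 44.5% of its counts. That transcript ran at 129 to 231 CPM in saline, 97.4 to 323 CPM in Ang II and 460 to 537 CPM with NaBu, so it showed the same separation.

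Among the other synthetases the groups mostly overlapped. Acsl6, known mainly from brain and muscle, stood at 24.5, 10.6 and 20.1 CPM in saline, 15.0, 20.6 and 20.0 CPM in Ang II and 23.5, 17.2 and 26.4 CPM with NaBu, with all groups overlapping. Acsl5 was 33.8, 29.4 and 30.7 CPM in Ang II and 25.4, 27.9 and 26.7 CPM with NaBu, beside 28.2, 27.2 and 26.7 CPM in saline. Ang II lay above both other groups without overlap, by a log2 difference of 0.19 (SE 0.0937, adjusted p 0.864) against saline and with NaBu lower by -0.23 (SE 0.0935, adjusted p 0.188). Acsl3 gave log2 differences of -0.21 for Ang II against saline and 0.17 for NaBu against Ang II, and Acsl4, which prefers arachidonic acid, -0.12 and -0.07, with no call. Acsl5 overlaps Zdhhc6, and the transcript estimates of Acsl4 and Acsl6 switched between their isoforms from library to library, the leading one being at 0 in some.

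**Figure D2:**
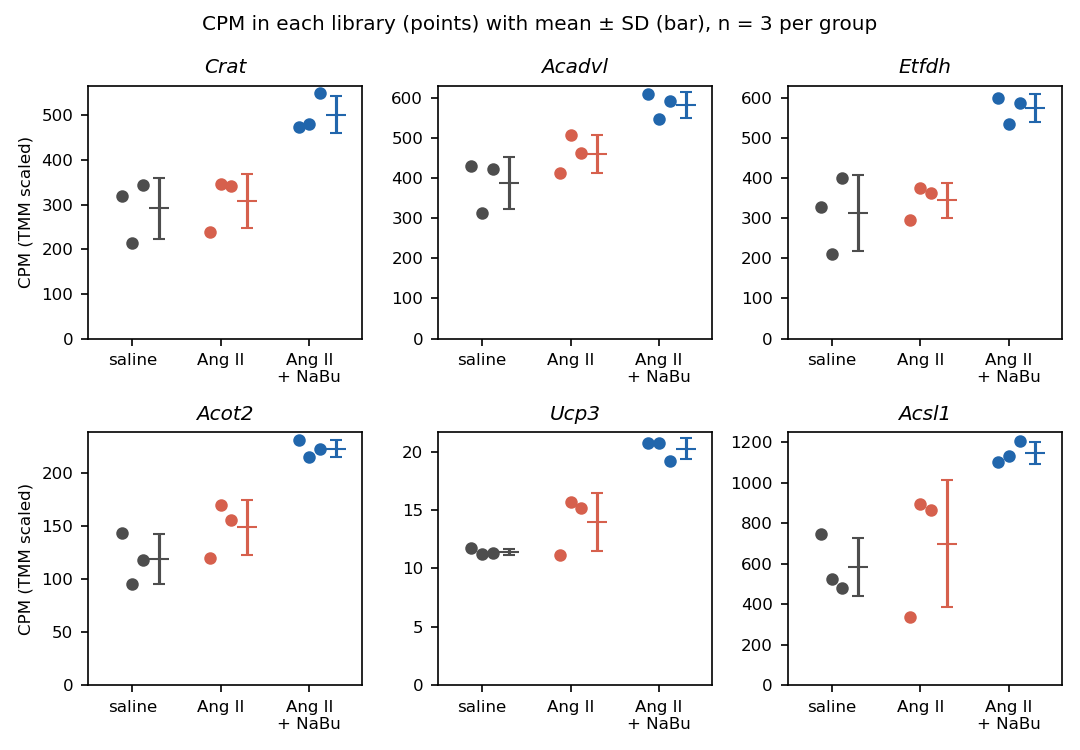
CPM (vertical axes, from 0) of the 5 genes called with NaBu against saline, and of Acsl1, in each library of the 3 groups (horizontal axes); points are libraries and bars are mean ± SD, n = 3. In all 6 panels the 3 NaBu libraries lie above the 6 others.

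The carnitine shuttle moves the activated chains into mitochondria, and 4 of its 5 genes lay higher with NaBu than in both other groups without overlap (10.8% of all genes). Cpt1b, the muscle form of carnitine palmitoyltransferase on the outer membrane, stood at 432, 339.8 and 480.4 CPM in saline, 330.5, 439.6 and 448 CPM in Ang II and 523, 528 and 594 CPM with NaBu. Cpt2, its partner at the inner membrane, stood at 147, 94.0 and 154.5 CPM in saline, 104, 154 and 146 CPM in Ang II and 186, 178 and 209.5 CPM with NaBu. Slc25a20, the carnitine-acylcarnitine translocase, stood at 145, 94.4 and 151.5 CPM in saline, 116, 152 and 166 CPM in Ang II and 183, 177 and 195.5 CPM with NaBu. The lowest NaBu library of each of these 3 genes was above the highest of the other 6 libraries. Against Ang II their log2 differences were 0.43 (SE 0.156), 0.51 (SE 0.198) and 0.35 (SE 0.183), with edgeR adjusted p-values of 0.145, 0.174 and 0.286.

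Crat, the acetyltransferase that exchanges acetyl groups between carnitine and coenzyme A, was the member of the shuttle that rose. Its level was 318, 213 and 343 CPM in saline, 239, 346 and 341.5 CPM in Ang II and 474, 481 and 549 CPM with NaBu. Means were 292 ± 68.9, 309 ± 60.7 and 501 ± 41.2 CPM (SD, n = 3), and NaBu lay above both groups without overlap. NaBu exceeded saline by a log2 difference of 0.78 (SE 0.193, 1.72-fold, edgeR adjusted p 0.0476) and Ang II by 0.70 (SE 0.193, 1.62-fold, adjusted p 0.0842). Cpt1a, the liver form of the transferase, stood at 84.1, 115 and 81.6 CPM in saline, 88.8, 102 and 96.2 CPM in Ang II and 98.5, 103 and 102 CPM with NaBu. Its NaBu libraries fell inside the saline range, and the log2 difference of NaBu against Ang II was 0.08 (SE 0.131, adjusted p 0.770).

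Acyl-CoA dehydrogenases carry out the first step of each cycle and divide the chain lengths between them. Acadvl, for very long chains, was 429, 313 and 422.5 CPM in saline, 413, 508 and 462 CPM in Ang II and 609, 547 and 591 CPM with NaBu. It averaged 388 ± 65.2, 461 ± 47.5 and 582 ± 31.9 CPM (SD, n = 3), and the NaBu libraries lay above all others. Acadvl rose with NaBu against saline by a log2 difference of 0.59 (SE 0.138, 1.5-fold, edgeR adjusted p 0.0411), and the difference from Ang II was 0.34 (SE 0.137, adjusted p 0.187). Acadm, for medium chains, ran at 362 to 752 CPM in saline, 591 to 680.3 CPM in Ang II and 757 to 889 CPM with NaBu. Acadl, for long chains, ran at 628 to 1225 CPM, 916 to 1153 CPM and 1332 to 1505 CPM. They gave 0.37 and 0.42 against Ang II. For all 4 dehydrogenases, with Acad9, which also serves complex I assembly, NaBu lay above Ang II without overlap (18.1% of all genes), without a call. For Acad9 the adjusted p from edgeR was 0.359.

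The remaining steps of the cycle also averaged higher with NaBu. Hadha and Hadhb encode the subunits of the trifunctional protein and are neighbours on chromosome 6. Hadha was 726.5, 508 and 723 CPM in saline, 605, 782 and 749 CPM in Ang II and 971, 982 and 1034 CPM with NaBu, and with an edgeR adjusted p of 0.0502 against saline (log2 difference 0.61, SE 0.153) it lay just outside the threshold. Hadhb, Hadh (the 3-hydroxyacyl-CoA dehydrogenase of shorter chains), Echs1 (enoyl-CoA hydratase) and Acaa2 (thiolase) gave log2 differences of 0.33 to 0.34 against Ang II and 0.40 to 0.50 against saline, none called. Hadhb ran at 625 to 983 CPM in saline, 670.2 to 1011 CPM in Ang II and 992 to 1204 CPM with NaBu, and Acaa2 at 312 to 546 CPM, 407 to 546 CPM and 601 to 673 CPM. The 4 enzymes that prepare unsaturated acids, Ech1, Eci1, Eci2 and Decr1, gave 0.22 to 0.45 against Ang II and 0.32 to 0.58 against saline, none called. Eci2 was the largest, at 88.7 to 141 CPM in saline, 98.8 to 152 CPM in Ang II and 166 to 202 CPM with NaBu.

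Electron transfer flavoprotein takes the electrons of the first step and passes them to ubiquinone through the dehydrogenase encoded by Etfdh. Etfdh stood at 327, 211 and 401 CPM in saline, 296, 375 and 363 CPM in Ang II and 601, 534.5 and 589 CPM with NaBu. The groups averaged 313 ± 95.6, 345 ± 42.9 and 575 ± 35.5 CPM (SD, n = 3), with NaBu clear of both. Etfdh rose with NaBu against saline by a log2 difference of 0.88 (SE 0.202, 1.84-fold, edgeR adjusted p 0.0382). Its 0.74 (SE 0.201, 1.67-fold, adjusted p 0.0827) against Ang II was the largest difference of the 37 in that comparison. The flavoprotein subunits Etfa and Etfb ran at 295 to 329 CPM and 146 to 167 CPM with NaBu, against 209.5 to 275 CPM and 128 to 138 CPM in Ang II. They gave 0.28 and 0.24 against Ang II, and their NaBu libraries overlapped saline.

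Thioesterases release fatty acids from coenzyme A, and uncoupling proteins are carriers of the inner mitochondrial membrane. Acot2, the mitochondrial thioesterase, stood at 143, 95.6 and 117 CPM in saline, 119.7, 169.8 and 156 CPM in Ang II and 231, 215 and 222 CPM with NaBu. Ucp3, the uncoupling protein of muscle, stood at 11.7, 11.25 and 11.3 CPM in saline, 11.1, 15.7 and 15.2 CPM in Ang II and 20.7, 20.8 and 19.2 CPM with NaBu. Both were highest in the 3 NaBu libraries, and 2 of the 3 Ang II libraries lay between saline and NaBu. With NaBu against saline, Acot2 rose by a log2 difference of 0.91 (SE 0.163, 1.88-fold, edgeR adjusted p 0.0217) and Ucp3 by 0.82 (SE 0.140, 1.77-fold, adjusted p 0.0201). Against Ang II the values were 0.59 (SE 0.162, adjusted p 0.0846) and 0.53 (SE 0.138, adjusted p 0.0763).

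Their closest relatives showed no such separation. Acot1, a cytosolic thioesterase that lies beside Acot2 on chromosome 6, stood at 8.34, 4.68 and 6.78 CPM in saline, 5.36, 9.46 and 8.99 CPM in Ang II and 6.95, 7.80 and 7.305 CPM with NaBu. Ucp2, the widely expressed uncoupling protein beside Ucp3 on chromosome 1, stood at 119, 151 and 145 CPM in saline, 136, 119.6 and 124 CPM in Ang II and 128, 135.5 and 141.5 CPM with NaBu. All groups of both genes overlapped. Acot1 and Acot2 are near-identical copies, and it is not stated how the authors' counting divided their shared reads, which makes their split uncertain. Acot13, another thioesterase, gave 0.38 (SE 0.25, adjusted p 0.404) against Ang II.

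Ratios within 4 pairs of relatives put a number on this. The first gene of each pair already lay higher with NaBu than in Ang II, so the ratios restate that and are no separate support. A log2 ratio of CPM between 2 genes also holds their difference in length, so only its change between groups is read. From Ang II to NaBu the mean log2 ratio of Acot2 to Acot1 went from 4.25 ± 0.198 to 4.92 ± 0.137 (SD, n = 3), a change of 0.67. Ucp3 to Ucp2 changed by 0.45, Cpt1b to Cpt1a by 0.36 and Acsl1 to Acsl6 by 0.58, and no pair's groups overlapped in that comparison. For Acsl1 to Acsl6 the gap was narrow, 5.51 in the lowest NaBu library against 5.44 in the highest Ang II library. The exact two-sided permutation p was 0.1 for each of the 4 pairs, the smallest that 3 against 3 can give, and 0.2 after adjustment over the 12 pair tests. Against saline, Acot2 to Acot1 changed by 0.73 and Ucp3 to Ucp2 by 0.85 without overlap (exact p 0.1 each), while Cpt1b to Cpt1a and Acsl1 to Acsl6 overlapped.

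**Figure D3:**
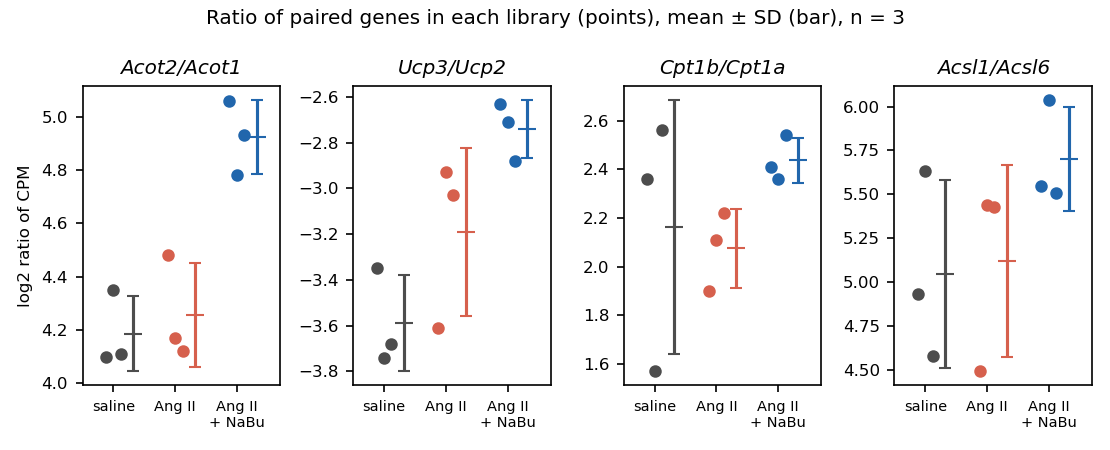
Log2 ratio of CPM (vertical axes) of 4 pairs of related genes in each library of the 3 groups (horizontal axes); points are libraries and bars are mean ± SD, n = 3. The NaBu libraries lie above the Ang II libraries in each of the 4 pairs, and above saline for Acot2/Acot1 and Ucp3/Ucp2.

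The groups overlapped for all 3 genes that set malonyl-CoA, the inhibitor of entry. Acacb encodes the acetyl-CoA carboxylase attached to mitochondria. It stood at 589.7, 579 and 579 CPM in saline, 562, 666 and 628 CPM in Ang II and 538, 583 and 571 CPM with NaBu. Acaca, the cytosolic form, stood at 42.2, 45.2 and 42.2 CPM in saline, 37.4, 43.7 and 42.5 CPM in Ang II and 39.8, 43.0 and 41.0 CPM with NaBu. All groups of both genes overlapped, and the log2 differences of NaBu against Ang II were -0.13 (SE 0.0969, edgeR adjusted p 0.453) and 0.00 (SE 0.0908, adjusted p 0.991). Mlycd, which breaks malonyl-CoA down, stood at 64.5, 42.6 and 62.2 CPM in saline, 47.1, 69.6 and 68.6 CPM in Ang II and 61.7, 76.8 and 77.0 CPM with NaBu, a log2 difference of 0.22 (SE 0.191, adjusted p 0.540) from Ang II.

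**Figure D4:**
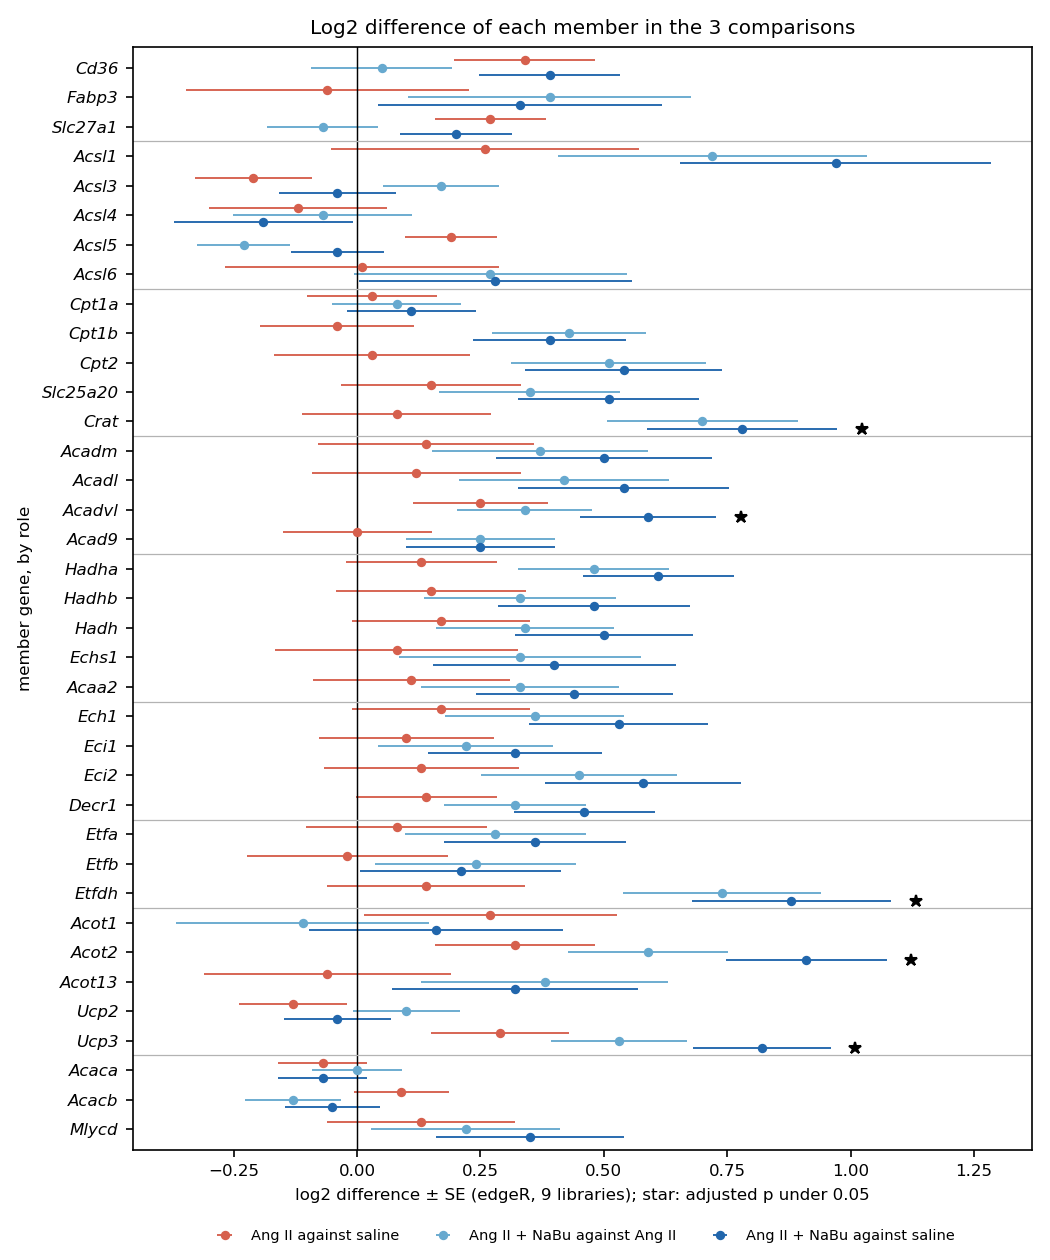
Log2 difference ± SE (horizontal axis, edgeR fit of 9 libraries) of each of the 37 genes (vertical axis, by role) in the 3 comparisons; stars mark an adjusted p under 0.05. The 5 stars, for Crat, Acadvl, Etfdh, Acot2 and Ucp3, all belong to NaBu against saline.

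Leaving out the library labelled saline replicate 2 moved medians and calls. Without it, the median of the 37 genes for Ang II against saline was -0.04, with 12 of 37 above 0, in place of 0.12 and 28. For NaBu against saline the median was 0.27, and 3 genes were called, Etfdh, Acot2 and Ucp3 (1.86% of all genes called higher), with log2 differences of 0.67, 0.79 and 0.83. Crat (0.61, adjusted p 0.0687) and Acadvl (0.47, adjusted p 0.0511) then missed the threshold. For NaBu against Ang II, whose fit saline enters through the shared spread, the median was 0.35 and 9 of the 37 were called higher (6.16% of all genes), namely Cpt2, Crat, Acadm, Acadl, Acadvl, Hadha, Etfdh, Acot2 and Ucp3.

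Other mitochondrial genes moved beside the fatty acid genes. Over all genes, 22.4% had an unadjusted p under 0.05 between NaBu and Ang II, and edgeR called 3.01% higher between NaBu and saline. Of 27 oxidative phosphorylation genes, NaBu was higher than Ang II for 27, with a median log2 difference of 0.37 and 0 called by edgeR (10 at an unadjusted p under 0.05). Of 11 citrate cycle genes it was higher for 11, all without overlap (18.1% of all genes), with a median of 0.44 and 0 called (7 at an unadjusted p under 0.05). Against saline, Cox6c (0.75, adjusted p 0.0338), Cycs (0.83, adjusted p 0.0424) and Uqcrfs1 (0.80, adjusted p 0.0459) of the respiratory chain rose, as did Idh3a of the citrate cycle (0.58, adjusted p 0.0478). Without the library labelled saline replicate 2, Cox6c (0.59, adjusted p 0.0314) and Cycs (0.64, adjusted p 0.0465) were still called, and Uqcrfs1 (0.63, adjusted p 0.0656) and Idh3a (0.45, adjusted p 0.0622) were not. That library was the lowest of the 9 for 26 of the 27 and 11 of the 11 genes of these lists. The median log2 ratio of the fatty acid genes to their mean of 9 libraries was -0.05, -0.63 and -0.04 in saline, -0.38, 0.03 and 0.02 in Ang II and 0.18, 0.19 and 0.35 with NaBu. For oxidative phosphorylation it was 0.03, -0.69 and 0.09, then -0.37, -0.02 and -0.02, then 0.13, 0.21 and 0.36. The difference between these medians ran from -0.02 to 0.05 with NaBu and from -0.01 to 0.06 in Ang II, so the medians of the 2 lists did not separate.

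**Figure D5:**
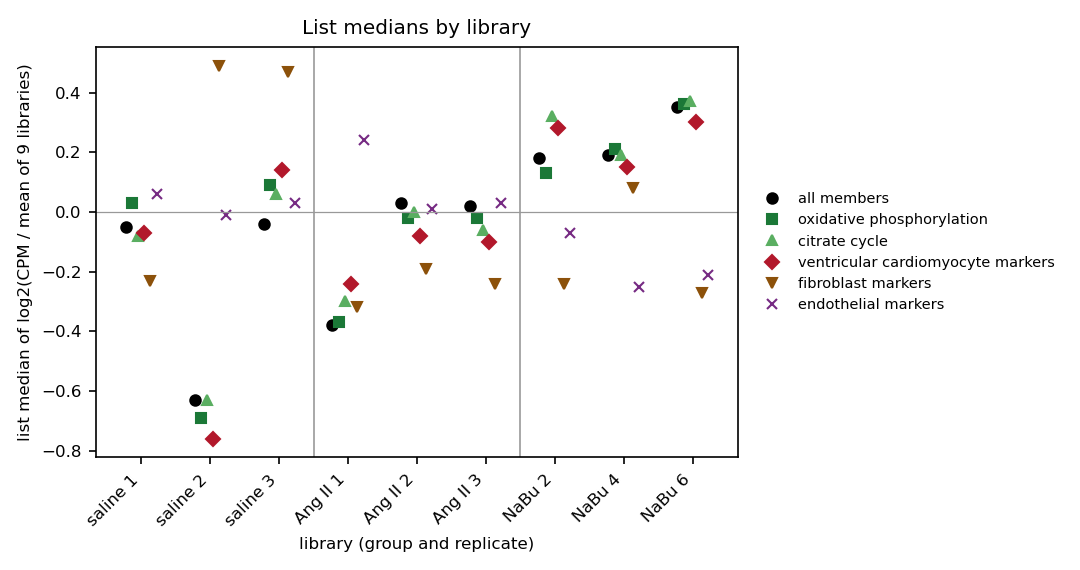
Median log2 ratio of CPM to the mean of 9 libraries (vertical axis) for the 37 fatty acid genes, other mitochondrial lists and cell markers in each library (horizontal axis). The fatty acid genes lie close to oxidative phosphorylation in every library, from -0.63 and -0.69 in the library labelled saline replicate 2 to 0.35 and 0.36 in NaBu replicate 6.

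Single genes did separate from the oxidative phosphorylation median. That list was itself higher with NaBu, so subtracting it lowers every gene there, and few of all genes then lie above and many below. Genes of the other mitochondrial and marker lists were not counted separately on this scale. With each library's median log2 ratio of the oxidative phosphorylation list subtracted, NaBu still lay above Ang II without overlap for 6 of the 37 genes (2.06% of all genes): Acsl1 by 0.48, Etfdh by 0.38, Crat by 0.35, Acot2 by 0.23, Hadha by 0.12 and Cpt1b by 0.08. It lay below Ang II for 9 (42.3% of all genes), namely Cd36, Slc27a1, Acsl4, Acsl5, Cpt1a, Acot1, Ucp2, Acaca and Acacb. Against saline it lay above for 9 (1.36% of all genes), with Acsl1 at 0.58, Etfdh and Acot2 at 0.50 and Crat at 0.39, and below for 3 (30.6% of all genes), Acsl5, Acaca and Acacb.

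Markers of cell types moved with the groups too. Over all genes, 22.4% had an unadjusted p under 0.05 between NaBu and Ang II, and 5.94% between Ang II and saline. edgeR called 1.60% of all genes between NaBu and Ang II and 5.06% between NaBu and saline. Of 14 ventricular cardiomyocyte markers, NaBu was higher than Ang II for 13, with a median of 0.41 and 0 called by edgeR (7 at an unadjusted p under 0.05), and their summed level was 94262.5 to 103851.7 CPM with NaBu, 81343.2 to 86383.4 CPM in Ang II and 61632.8 to 100014.8 CPM in saline. Of 11 endothelial markers NaBu was lower for 11, with a median of -0.25 and 1 that fell (Egfl7), and their summed level was 1560.5 to 1815.2 CPM with NaBu, 1855 to 2128 CPM in Ang II and 1852 to 2222 CPM in saline. Of 11 fibroblast markers Ang II was lower than saline for 11, with a median of -0.52 and 0 called (8 at an unadjusted p under 0.05), while NaBu was higher than Ang II for 7, with a median of 0.16. They summed to 2794.5 to 3492 CPM with NaBu and 2794.1 to 2966 CPM in Ang II. In saline replicates 1 to 3 the sums were 2868.8, 4734.3 and 4092.5 CPM. The sum of saline replicate 1 thus lay within the Ang II range, and the lower sum in Ang II rested on saline replicates 2 and 3. For 4 of the 11, Dpt, Postn, Mfap5 and Islr, Ang II lay below all 3 saline libraries without overlap (4.97% of all genes). Of 8 red blood cell markers Ang II was higher than saline for 8, with a median of 0.69 and 0 called by edgeR (6 at an unadjusted p under 0.05). NaBu was lower than Ang II for 8, with a median of -0.49 and 0 called (3 at an unadjusted p under 0.05), and their summed level was 2330 to 2934.9 CPM with NaBu, 2621.5 to 4620.4 CPM in Ang II and 1931.5 to 2790.7 CPM in saline. Of 8 smooth muscle and pericyte markers NaBu was lower than Ang II for 7, with a median of -0.24 and 0 called (2 at an unadjusted p under 0.05). Des, which encodes desmin and is also expressed in cardiomyocytes, was the exception at 0.71 (adjusted p 0.0537), and with it the list summed to 2901 to 3304.1 CPM with NaBu, 2185 to 2453.1 CPM in Ang II and 2259.9 to 2742.6 CPM in saline. Of 8 macrophage and lymphocyte markers with a mean of at least 1 CPM, NaBu was lower for 5, with a median of -0.02 and 0 called (0 at an unadjusted p under 0.05). Of the 7 adipocyte markers Cfd, Plin4 and Lep were tested, none called, and Lep was at most 1.42 CPM in any library. Adipoq, which defines adipocytes, was at most 0.116 CPM in 7 libraries, 2.93 CPM in NaBu replicate 4 and 9.20 CPM in the library labelled saline replicate 2. Against saline, Pln (0.83, edgeR adjusted p 0.0305) of the ventricular list and Des (0.65, adjusted p 0.0425) were higher with NaBu. So was Slc4a1 of the red blood cell list (0.67, adjusted p 0.0391). Ang II alone against saline gave Pln 0.37, Des -0.06 and Slc4a1 0.74, and NaBu against Ang II gave 0.46, 0.71 and -0.07. None of these was called. Egfl7 fell with NaBu against saline by 0.56 on the log2 scale (adjusted p 0.0149). The atrial marker Bmp10 fell too (adjusted p 0.0376): it stood at 0.42, 645.8 and 22.2 CPM in saline and at most 0.419 CPM with NaBu. Without the library labelled saline replicate 2, Pln (adjusted p 0.0198), Des (0.0480) and Egfl7 (0.0198) were still called, and Slc4a1 (0.0669) and Bmp10 (0.0537) were not. The part of these cell types in the differences of the fatty acid genes was not tested. The medians of fatty acid genes and cardiomyocyte markers differed by -0.10 to 0.05 with NaBu and by -0.14 to 0.12 in Ang II, which overlap.

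Among 17 regulators of the pathway, 1 rose with NaBu against saline (3.01% of all genes called higher). NaBu was higher than Ang II for 14 of the 17, with a median of 0.10 and 0 called by edgeR. There 8 had an unadjusted p under 0.05, against 22.4% of all genes. Tfam, which maintains mitochondrial DNA, rose against saline by a log2 difference of 0.59 (adjusted p 0.0335), from 24.2, 19.1 and 24.2 CPM in saline to 32.8, 31.7 and 37.2 CPM with NaBu, beside 23.6, 28.3 and 27.1 CPM in Ang II. Without the library labelled saline replicate 2 the difference was 0.50 (adjusted p 0.0591) and missed the threshold. The AMP-activated kinase subunit Prkaa2 gave 0.53 and Esrra, which encodes ERR alpha, 0.42 against Ang II (adjusted p 0.105 and 0.272), at the other end from Pparg (-0.47) and Nrf1 (-0.37), none called. Ppara, which encodes PPAR alpha, gave 0.07 (adjusted p 0.859) and Ppargc1a, which encodes PGC-1 alpha, 0.37 (adjusted p 0.151).

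Genes that deliver fatty acids or handle other acyl groups numbered 22 among those tested. NaBu was higher than Ang II for 16 of them, with a median of 0.25. In that comparison 1 rose (1.60% of all genes called), Acsf2, an acyl-CoA synthetase of medium chains. Acsf2 stood at 174, 130.4 and 198 CPM in saline, 168, 203 and 181 CPM in Ang II and 327, 279 and 316 CPM with NaBu. NaBu lay above both groups, by a log2 difference of 0.74 (edgeR adjusted p 0.0447) against Ang II and 0.88 (adjusted p 0.0202) against saline. Against saline, where 3.01% of all genes were called higher, the thioesterase gene Acot9 rose too (0.51, adjusted p 0.0451). Without the library labelled saline replicate 2, Acsf2 was still called (0.74, adjusted p 0.0217) and Acot9 was not (0.41, adjusted p 0.0739). Against saline, Pdk4, the kinase that shuts off pyruvate dehydrogenase, gave 0.88 with an adjusted p of 0.0576. Hsd17b10 gave 0.55 against Ang II, and the low end was Gpihbp1, the endothelial anchor of lipoprotein lipase, at -0.38 and Cpt1c at -0.35, none called.

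Peroxisomal beta-oxidation genes differed in both directions. Of 13 peroxisomal genes NaBu was higher than Ang II for 9, with a median of 0.13 and 0 called by edgeR. There 1 had an unadjusted p under 0.05, against 22.4% of all genes. The differences ran from Pex11a at -0.49 and Slc25a17 at -0.37 to Scp2 at 0.30 and Abcd2 at 0.33. Slc25a17, a carrier of the peroxisomal membrane, fell against saline by 0.65 on the log2 scale (adjusted p 0.0290), from 15.4, 14.8 and 16.1 CPM in saline to 9.74, 10.8 and 8.89 CPM with NaBu, with 11.2, 12.9 and 13.9 CPM in Ang II between them. Without the library labelled saline replicate 2 it was still called (-0.67, adjusted p 0.0490).

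The calls depended on the test and on the libraries. For NaBu against saline DESeq2 called 15 of the 37 genes higher (7.97% of all genes), and edgeR called 0 with only the 2 compared groups in the fit and 0 when any 1 NaBu library was left out, against 5 with all libraries. No alternative turned the direction of Ucp3, Acot2, Etfdh, Acadvl or Crat in either NaBu comparison.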

How the data were processed

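RNA-seq of 9 left ventricle libraries was analysed from estimated counts. The authors deposited 1 table per group with whole-number estimated counts per transcript, and the file headers give a transcript ID, a gene name and a column per library. In the deposited saline table, line-end characters inside the last column of estimated counts were removed on reading. Per the submitters' processing notes, Bowtie 0.12.2 and mm8, a mouse build, were used, although transcripts carry rat RefSeq IDs. The counter and its strand setting are not stated. Low values did not fall off evenly. Values of 1 numbered 5052 and values of 3, 4 and 5 numbered 3540, 4390 and 4271, a step up at 4, so dividing by 4 was an alternative. Each table holds 1 group, so processing and group cannot be told apart.

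Counts of 55767 transcripts were summed by gene name. edgeR 4.0.16 (R 4.3.3; quasi-likelihood test, TMM factors 0.887 to 1.14, filterByExpr) was fitted to all 9 libraries with group as the only term, and p-values were Benjamini-Hochberg adjusted over 15467 genes. CPM uses TMM-scaled totals. DESeq2 1.42.0 was an alternative, beside other scalings and filters, single-transcript values and left-out libraries. Upstream sequences came from RefSeq (GRCr8). The genes and lists were chosen with earlier results of these data known. Named genes were every one of the 37, with values in every library for uptake, carnitine shuttle, malonyl-CoA, called, most changed and paired genes, and for other lists up to 2 genes at each end and every called one. The fit was tested on simulated data.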

Additional observations from a re-analysis of the deposited data

How the results depend on the processing

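The medians of the 37 genes moved by less than the SD of single-library medians, pooled within groups (0.243), in every alternative. That SD includes the libraries that were left out, among them saline replicate 2, so it is a wide measure. Within it, the median for Ang II against saline changed sign, from 0.12 to -0.04 without saline replicate 2. With single libraries left out the medians ran from -0.04 to 0.25 for Ang II against saline, 0.21 to 0.41 between NaBu and Ang II and 0.27 to 0.55 between NaBu and saline. Of the fatty acid genes called, NaBu against saline gave 5, and 15 with DESeq2, 0 with only the 2 compared groups in the fit, 0 with the highest transcript per gene, 0 without saline replicates 2 and 3 together, and 0 to 6 with single libraries left out. It was 0 without each of NaBu replicates 2, 4 and 6, and Acot2 and Ucp3 were called without each of the other 6 libraries. NaBu against Ang II gave 0, and 6 with DESeq2, 9 with only the 2 groups, 8 without saline replicates 2 and 3 together, 2 without saline replicate 2 and Ang II replicate 1 together, and 0 to 9 with single libraries left out (9 without saline replicate 2, 1 without saline replicate 3). Over all genes, Ang II against saline gave 0 calls, 57 with DESeq2, 1 with only the 2 groups, 3 with the highest transcript, 11 without saline replicates 2 and 3, 1 without saline replicate 2 and Ang II replicate 1, and 0 to 7 with single libraries left out. NaBu against Ang II gave 248, 1515 with DESeq2, 4 with total count scaling, 1802 with only the 2 groups, 5 with the highest transcript, 1695 without saline replicates 2 and 3, 116 without saline replicate 2 and Ang II replicate 1, and 1 to 1482 with single libraries left out. NaBu against saline gave 782, 1990 with DESeq2, 411 with total count scaling, 9 with only the 2 groups, 21 with the highest transcript, 109 without saline replicates 2 and 3, and 6 to 1303 with single libraries left out. The causes were not tested.

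For Ang II against saline, genes above 0 went from 28 to 12 of 37 without saline replicate 2, and the signs that turned are not listed. In the 2 NaBu comparisons the following log2 differences changed sign. For NaBu against Ang II, Acaca went to -0.03 with upper-quartile scaling, and with total count scaling, which put the median of all genes at -0.133, Cd36 went to -0.05, Cpt1a to -0.03, Ucp2 to -0.01 and Acaca to -0.10. With the highest transcript, Acsl5 went to 0.21, Acsl6 to -0.79 and Acaca to -0.01 against Ang II, and Acsl5 to 0.21 and Acsl6 to -0.02 against saline. With single libraries left out, values against Ang II ranged from -0.05 to 0.07 for Acaca, from -0.02 to 0.13 for Cd36, from -0.15 to 0.02 for Slc27a1 and from -0.32 to 0.05 for Acot1. Against saline they ranged from -0.10 to 0.02 for Acsl3, -0.36 to 0.07 for Acsl4, -0.01 to 0.46 for Etfb, -0.03 to 0.36 for Acot1 and -0.13 to 0.05 for Ucp2. Without saline replicates 2 and 3 together, Acsl6 went to -0.13, Acot1 to -0.18 and Ucp2 to 0.18 against saline. Without saline replicate 2 and Ang II replicate 1 together, Cd36 went to -0.01 and Acaca to -0.06 against Ang II, and Acsl4 to 0.06, Etfb to -0.02, Acot1 to -0.04 and Ucp2 to 0.03 against saline.

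Saline and Ang II share replicate numbers, and the labels do not say whether a number pairs libraries. Same-numbered libraries' deviations correlated at -0.00413, -0.0328 and 0.0078, and differently numbered ones at -0.0262 to 0.0289. With 3 libraries a group these values cannot decide whether libraries were paired. With the replicate block, 0 of the 37 were called for Ang II against saline and their median was 0.13. In simulated data for NaBu against saline, 16.4% of 67 genes changed 1.5-fold and 65.7% of 67 changed 2-fold were called. Fewer genes were changed there than were called in the data, and no simulated library was made to stand apart. These shares therefore do not give the share of real differences that was called.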
